A study of Mus musculus with 2 samples.

Results

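The spots described here are the 120 spots of a mouse calvarial bone section treated with collagen/nHA material, in which transcripts of Ly6c2, Cxcl10 and Tmem178 took the largest share of the RNA counted. They were drawn from the Col_nHA section, in which 2471 of 4992 barcodes were kept for their number of unique molecular identifiers (UMIs, 1 for each captured RNA molecule). The most UMIs of any barcode left out was 4687. The kept spots were ranked by the summed UMIs of the 3 genes over all UMIs of the spot, and ties were broken by barcode order. The 120 highest, 4.86% of the kept spots, are called member spots, and the other 2351 kept spots are called the remaining spots. The whole series held 9984 barcodes in 2 sections.

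The assay captured RNA of frozen sections of skull-roof bone defects on an array whose spots carry position barcodes, and the bone was taken at day 7. The Col_nHA section came from a defect repaired with the collagen/nHA material, and the Blank section from a defect repaired without it. Both groups shared the defect, the tissue, the species and the day of harvest, and the labels used here give no strain, genotype, sex or age. Each group held 1 section, so the values below come with no p-value and no check by replicates. The intervals are exact 95% intervals for counts and leave out the spread between animals or sections. A spot can hold several cells or parts of cells. More cells of a type in a spot and more RNA per cell therefore cannot be told apart.

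Ly6c2 encodes a surface protein carried by classical inflammatory monocytes of the mouse, which leave the blood, enter wounds and become macrophages. Cxcl10 encodes a chemokine that draws cells with the receptor Cxcr3, and its gene is switched on by interferons. Interferons bind receptors that act through factors such as Stat2 and Irf9, and these raise a large set of antiviral and antigen-presenting genes by way of short promoter elements. Tmem178 encodes a membrane protein of the endoplasmic reticulum that is known, in mice, as a restraint on calcium signals during osteoclast formation.

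Member spots held 1630715 UMIs in all. A member spot had 4777 UMIs at the lowest, 10764 at the median and 42483 at the highest, and a median of 3708 genes. Remaining spots had a median of 13940 UMIs and 3999 genes. Mitochondrial genes took 2.94% of the UMIs of member spots and 4.67% of those of remaining spots, and ribosomal protein genes took 12.2% and 12.7%. All 4992 barcode sequences occurred in both sections, since both arrays used the same set of barcodes.

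The values that chose the spots were as follows. Levels are counts per 1000000 UMIs (CPM), taken from the UMIs summed over a set of spots. Ly6c2 had 671 UMIs in member spots, 411 CPM (381 to 444), and stood at 26.8 CPM in the remaining spots. Cxcl10 had 732 UMIs, 449 CPM (417 to 483), against 15 CPM. Tmem178 was much scarcer, with 86 UMIs, 52.7 CPM (42.2 to 65.1), against 6.27 CPM. Ly6c2 was found in 113 of the 120 member spots, Cxcl10 in 99 and Tmem178 in 33. The name of the set thus leans on Ly6c2 and Cxcl10, and Tmem178 was absent from most of its spots.

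The 3 genes were unevenly spread. The first spot in rank held 82 Cxcl10 UMIs, 5 of Ly6c2 and 1 of Tmem178 among 14069 UMIs, and these 82 were 11.2% of all Cxcl10 UMIs of the member spots. The spot with the most Tmem178 held 23 UMIs, 26.7% of that gene's total. A member spot had 2 UMIs of the 3 genes at the lowest, 8 at the median and 88 at the highest. The last spot inside the limit, at rank 120, had 2 UMIs of 5489, a share of 364.4 CPM, and the first outside it, next in rank, had 2 of 5492, a share of 364.2 CPM. The share fell without a step at the limit, so the spots just inside and just outside it are alike in these genes. Of the remaining spots, 59.0% had no UMI of the 3 genes.

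**Figure D1:**
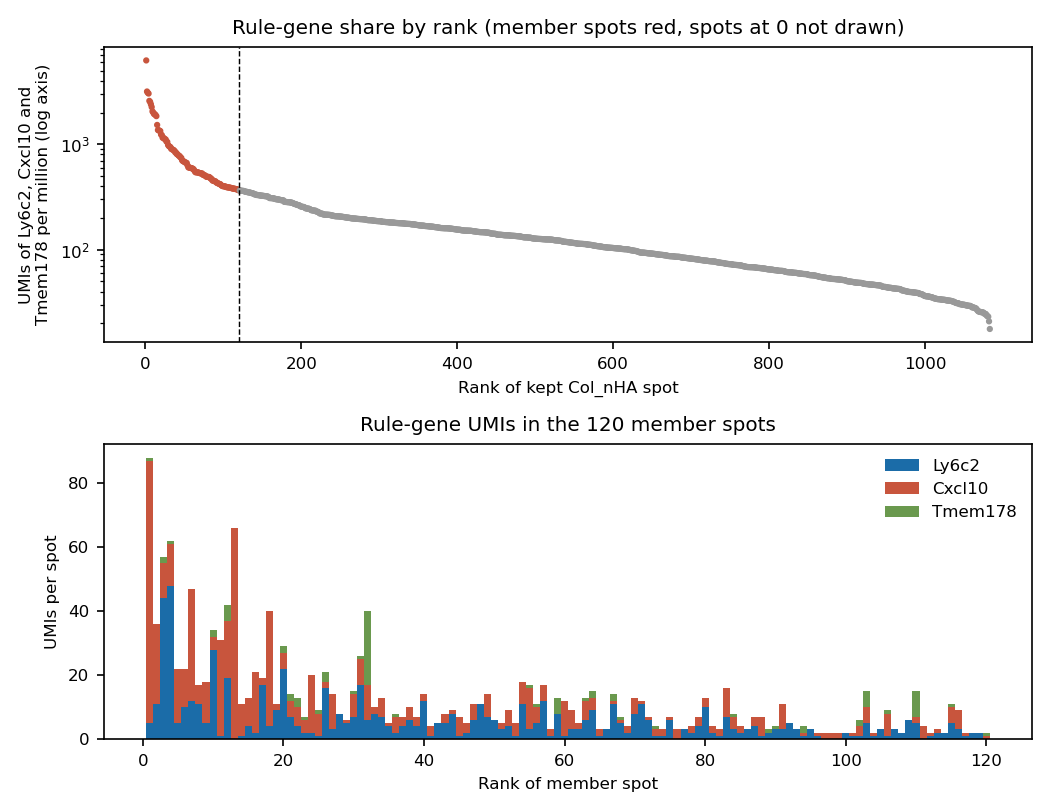
Upper panel: summed UMIs of Ly6c2, Cxcl10 and Tmem178 as CPM of the spot (log axis) against the rank of the kept Col_nHA spot, with member spots in red, remaining spots in grey, a dashed line after rank 120, and spots at 0 not drawn. Lower panel: UMIs of each of the 3 genes, stacked, in the 120 member spots in order of rank. The share passes rank 120 without a step, Ly6c2 and Cxcl10 fill most bars, and Tmem178 reaches 23 UMIs in 1 spot.

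Ly6c2 and Cxcl10 without Tmem178 were found together in 63 member spots, and all 3 genes in 29. Ly6c2 was the only gene of the 3 in 18 member spots and Cxcl10 in 6. Ly6c2 occurred with Tmem178 alone in 3, and Cxcl10 with Tmem178 alone in 1. To see each gene in spots that it had not chosen, the kept spots were ranked again by the other genes of the rule. In the 120 spots ranked highest for Cxcl10 and Tmem178, Ly6c2 stood at 279 CPM against 31.8 CPM in the rest, a ratio of 8.76 (7.87 to 9.75). In those ranked highest for Ly6c2 and Tmem178, Cxcl10 stood at 252 against 23.1 CPM, a ratio of 10.9 (9.71 to 12.3). Tmem178 stood at 40.2 against 6.82 CPM in the spots ranked by the other genes, a ratio of 5.90 (4.42 to 7.76) from 65 UMIs in 25 spots. Each of the 3 genes was higher in spots picked without it. Of the 120 spots in each ranking, 80, 79 and 112 were also member spots, in the order given. The 3 genes were put into 1 rule with earlier results of these data known, so this describes them and is no test.

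Ly6c1, the close neighbour of Ly6c2 on chromosome 15 and a gene of endothelium as well as of blood cells, had 146 CPM in member spots and 123 CPM in the remaining spots, a ratio of 1.19 (1.04 to 1.36). The genes are near copies, and the handling of reads that map to both was not examined. All 3 rule genes are annotated as protein-coding in RefSeq's GRCm38.p6 table. Ly6c2 (ENSMUSG00000022584) spans 75108161 to 75112066 of chromosome 15, Cxcl10 (ENSMUSG00000034855) lies on chromosome 5 from 92346638 to 92348889, and Tmem178 (ENSMUSG00000024245) on chromosome 17 from 80944632 to 81001816.

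The Cxcl10 promoter is shown because most genes that stood highest in the member spots are known, like Cxcl10, as targets of interferon. It covers chr5:92348840-92349139 on the minus strand of GRCm38.p6, from 250 bases before the RefSeq start to 50 after it, printed 5′ to 3′. The first stretch in capitals, 213 bases before the start, matches the letters GAAANNGAAA, searched on both strands as the core of an interferon-stimulated response element. The second stretch, 103 bases before the start, matches GGGACTTCC, a form of the NF-kB element.
Cxcl10: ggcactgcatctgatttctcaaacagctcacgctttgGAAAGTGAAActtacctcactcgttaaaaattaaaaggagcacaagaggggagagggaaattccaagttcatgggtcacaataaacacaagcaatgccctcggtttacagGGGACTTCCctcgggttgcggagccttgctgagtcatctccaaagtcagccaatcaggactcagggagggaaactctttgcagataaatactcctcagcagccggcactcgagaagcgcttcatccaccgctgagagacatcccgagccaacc

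Of the 6393 genes with at least 25 CPM in member or remaining spots, 361 (5.65%) were at least 2-fold higher in member spots and 192 (3%) at least 2-fold lower. The median log2 ratio of all these genes was 0.02. These genes were not used by the rule, but they come from the same spots, so the ratios describe the spots chosen and are no test.

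Among genes that reached 50 CPM, the 12 with the highest ratios were mostly interferon-response genes. Rsad2, which encodes the antiviral enzyme viperin, came first. It had 379 UMIs in 69 member spots, 232 CPM against 18.3 CPM in the remaining spots, a ratio of 12.7 (11.2 to 14.4). Ms4a4c, a membrane protein gene of monocytes and other interferon-exposed leukocytes, stood at 237 against 23.2 CPM, a ratio of 10.2 (9.02 to 11.5), and was found in 87 member spots. Acod1, which encodes the enzyme that makes itaconate in activated macrophages, stood at 59.5 against 5.89 CPM, a ratio of 10.1 (7.88 to 12.9). The antiviral gene Mx1, listed as a transcribed pseudogene in the reference strain, stood at 96.9 against 9.80 CPM.

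The nucleotide kinase gene Cmpk2, the neighbour of Rsad2 on chromosome 12, had a ratio of 9.72. Cd274, which encodes the T cell checkpoint ligand PD-L1, had a ratio of 7.88 from 105 UMIs. Ccl4, a chemokine gene of activated macrophages, had a ratio of 7.80, but 25% of its 224 UMIs lay in 1 spot. The ratio was 7.54 for Cxcl9, a chemokine that shares the receptor of Cxcl10. Oas3, which encodes a sensor of double-stranded RNA, and Ifit1, which binds foreign RNA, stood at 7.42 and 7.28. Tgtp2, an interferon-inducible GTPase gene with a near copy, Tgtp1, stood at 6.94, and Phf11b at 6.88. Ratios of the 12 genes lay above 1 under each of the 19 alternatives tried. The genes were picked for their high ratios in these same data, so this is a description and no test.

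**Figure D2:**
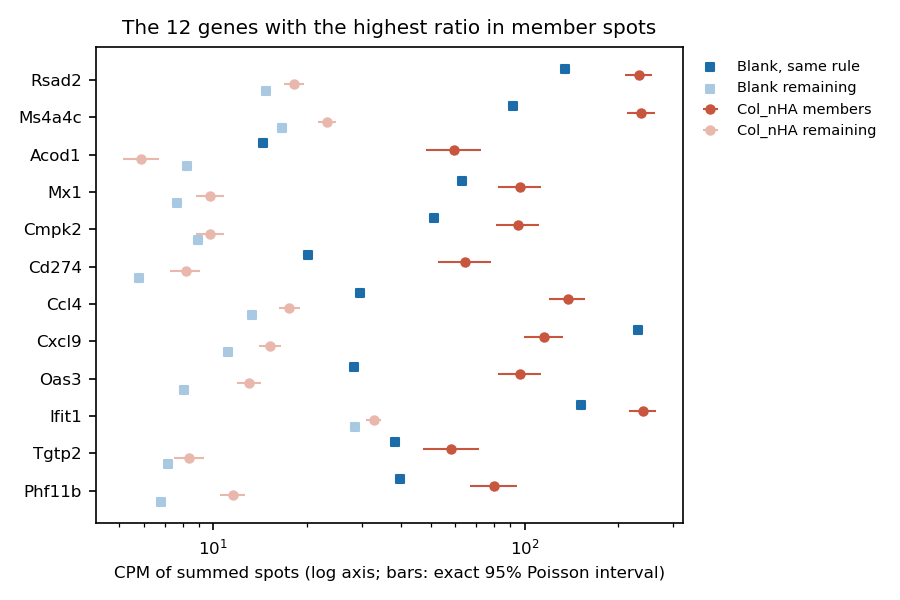
CPM of summed spots (log axis) for the 12 genes with the highest ratio, in Col_nHA member spots (dark red circles) and remaining spots (light red circles) with exact 95% Poisson intervals, and in the Blank spots chosen by the same rule (dark blue squares) and the Blank remaining spots (light blue squares). Member spots stand to the right of the remaining spots for each of the 12 genes, with 232 against 18.3 CPM for Rsad2 and 58.3 against 8.40 CPM for Tgtp2, and Cxcl9 stands higher in the Blank spots, at 231 CPM.

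Windows of 30 bases around the first match to GAAANNGAAA, or its reverse complement, are shown for 5 of these 12 genes and for Isg15 and Ifit3, with each match inside the window in capitals, 5′ to 3′ in the direction of transcription. Of the 12 genes, 10 were in the RefSeq promoter table, and these 5 of the 10 held a match.
Rsad2: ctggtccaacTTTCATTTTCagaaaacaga
Ifit1: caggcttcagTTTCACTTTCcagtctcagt
Oas3: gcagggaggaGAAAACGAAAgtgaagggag
Tgtp2: tccaggaatcGAAACCGAAAcctactctga
Phf11b: cacatttagaGAAAAAGAAActagaaacta
Isg15: tatgccgtagGAAAAGGAAACCGAAAcaga
Ifit3: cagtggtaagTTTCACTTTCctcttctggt

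They lie at chr12:26456553-26456582 (minus strand), chr19:34640775-34640804 (plus), chr5:120777715-120777744 (minus), chr11:49064263-49064292 (minus), chr14:59341361-59341390 (minus), chr4:156200877-156200906 (minus) and chr19:34583363-34583392 (plus) of GRCm38.p6, in the order shown. Of the 27025 genes in the promoter table, 3.99% held a match to GAAANNGAAA in 300 bases, and 0.936% held GGGACTTCC. Of the 21 genes of the type I interferon list in the table, 13 held GAAANNGAAA, as did 10 of 15 genes of the interferon gamma list and 0 of 13 of the monocyte list. The letters TTCNNNGAA, the core of a gamma-activated site, were found in 8 of 15 genes of the interferon gamma list, 3 of 21 of the type I list, 1 of 13 of the monocyte list and 9.55% of all genes. A match describes letters in these windows, and binding was not measured.

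The type I interferon response list was higher in the member spots. All 27 members were measured, 26 were at least 2-fold higher, and the median log2 ratio was 2.07 (1.81 to 2.28, the medians of the genes' interval bounds). Isg15, which encodes a ubiquitin-like protein that is attached to other proteins, stood at 447 CPM against 120 CPM, a ratio of 3.74 (3.45 to 4.04). Irf7, the factor that amplifies interferon production, stood at 356 against 71.9 CPM, a ratio of 4.94. Ifit3 had a ratio of 6.74 and Ifit2 one of 9.31 from 72 UMIs. The single member short of 2-fold was Irf9, at 1.38 (1.12 to 1.67), while its partner Stat2 stood at 2.88.

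Per spot, the type I list took 0.033% of the UMIs in the lowest member spot, 0.439% in the median and 1.48% in the highest, against a median of 0.141% in remaining spots. Of the 120 member spots, 113 lay above that median and 70 above the 95th percentile of the remaining spots, 0.379%. The ranges overlapped, and the highest remaining spot reached 1.04%. Because interferon raises Cxcl10, the spots were also ranked without Cxcl10, and the median of the list was then 1.69.

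The interferon gamma response list had 17 of 23 members measured, and all 17 were at least 2-fold higher, with a median log2 ratio of 2.03. Gbp2, which encodes a GTPase that attacks the vacuoles of intracellular microbes, stood at 239 against 45.2 CPM, a ratio of 5.28 (4.71 to 5.89). The immunity-related GTPase gene Iigp1 stood at 4.18, the transcription factor genes Irf1 and Irf8 at 3.04 and 2.33, and the feedback inhibitor Socs1 at 2.52. The list lay above the median of the remaining spots in 115 member spots and above their 95th percentile in 89. The type I and gamma lists hold genes that either kind of interferon can raise, so the lists do not separate the cytokines.

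Transcripts of the interferon genes looked up were absent or nearly so at this depth. Ifnb1, Ifna1, Ifna2 and Ifna4 had 0 UMIs in member and remaining spots, and Ifng had 0 UMIs in member spots and 6 in remaining spots. A count of 0 in the member spots allows a level of up to 1.84 CPM at a limit of 3 UMIs, and the exact 95% interval reaches 2.26 CPM for Ifnb1. Receptor genes differed little, with Ifnar1 at 1.49 (1.23 to 1.80), Ifnar2 at 1.25, Ifngr1 at 1.57 and Ifngr2 at 1.37. These 9 genes, apart from Ifng, were chosen after their values were seen.

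Antigen-presentation genes were higher as well. Of 14 genes of MHC class I presentation, 13 were at least 2-fold higher, and the median log2 ratio was 1.36. The class I heavy chain gene H2-K1 stood at 2.54 (2.46 to 2.63), its light chain B2m at 2.32, the peptide transporter subunit Tap1 at 3.72 and the immunoproteasome subunit Psmb9 at 3.26. The exception was the peptide-trimming enzyme gene Erap1, at 1.59. All 8 measured genes of the class II list were at least 2-fold higher, with a median of 1.61. The class II chain gene H2-Aa stood at 638 against 209 CPM, a ratio of 3.06 (2.87 to 3.27), the invariant chain Cd74 at 3.05, and the co-stimulatory genes Cd86 and Cd40 at 3.70 and 4.50.

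**Figure D3:**
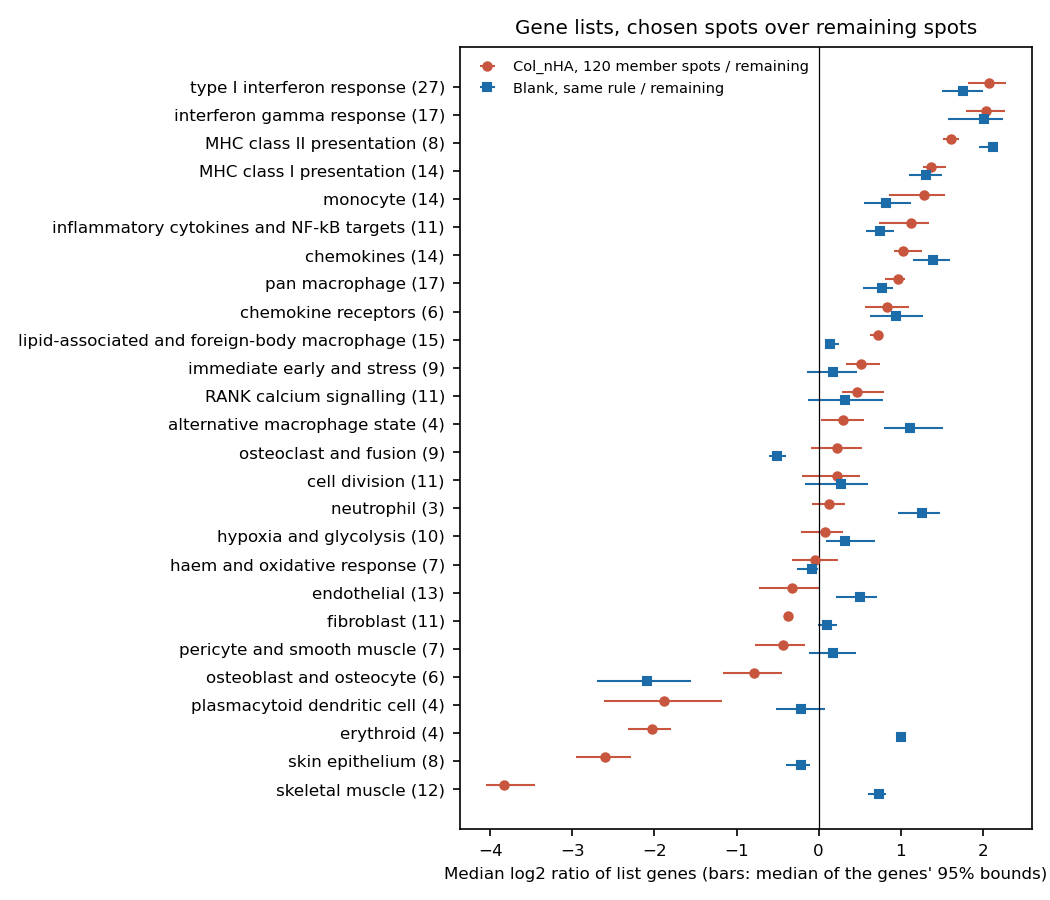
Median log2 ratio of the measured genes of each list, chosen spots over remaining spots, in Col_nHA (red circles) and in Blank by the same rule (blue squares). Lists with at least 3 measured genes in Col_nHA are drawn. Bars run between the medians of the genes' 95% bounds, and numbers in brackets are the measured genes in Col_nHA. The T and NK cell list, with 2 measured genes in Col_nHA, is not drawn, and stood at 3.82 in Blank over 4 genes. Of the lists drawn, the interferon lists stand highest in Col_nHA, at 2.07 and 2.03, and the class II list in Blank, at 2.12, while the skeletal muscle list stands at -3.83 in Col_nHA, though at 0.62 there without spots rich in other tissues, and at 0.73 in Blank.

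Monocyte genes other than Ly6c2 were in part higher. Of 20 listed genes 14 were measured, of which 8 passed 2-fold upwards and 0 downwards, with a median log2 ratio of 1.28 (0.86 to 1.54). Ccr2, the receptor by which monocytes leave the marrow and enter tissue, had 268 UMIs in 86 member spots and stood at 164 against 43.9 CPM, a ratio of 3.74 (3.28 to 4.26). Plac8 stood at 227 against 59.9 CPM, a ratio of 3.79, and the chitinase-like gene Chil3 at 165 against 41.4 CPM, a ratio of 3.98.

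Other genes of the same list lay close to the remaining spots. F13a1, a coagulation factor subunit, stood at 1.13, and the matrix genes Vcan, Fn1 and Thbs1 at 0.90, 0.967 and 1.06. As a summed share the monocyte list took 0.591% of UMIs in member spots and 0.478% in remaining spots. Fn1 alone stood at 3531 and 3651 CPM, so most of that share was Fn1. By this share the list lay above the median of the remaining spots in 88 member spots but above their 95th percentile in 9. These counts of spots therefore say little of the scarcer monocyte genes. The label of the set thus fits Ccr2, Plac8, Chil3 and Ms4a4c, while the genes that lead it are interferon-response genes.

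Chemokine genes were split. Of 14 measured, 7 were at least 2-fold higher and none lower, with a median log2 ratio of 1.03. Ccl2 and Ccl7, ligands of Ccr2, stood at 402 against 102 CPM and 423 against 109 CPM, ratios of 3.95 (3.63 to 4.30) and 3.89. The T cell and macrophage chemokine Ccl5 had a ratio of 3.90, Ccl12 one of 2.59, Ccl3 one of 2.51 and Ccl6 one of 2.12. Ccl8 stood at 1.14, the stromal chemokine Cxcl12 at 1.16 and the platelet chemokine Pf4 at 0.861.

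Of the 6 chemokine receptor genes measured, 3 were at least 2-fold higher and none lower, with a median log2 ratio of 0.84, which was 0.22 in spots of like macrophage share. Ccr7 stood at 2.57 (1.82 to 3.56) and Ccr1 at 2.10 (1.78 to 2.45), while Cxcr4 stood at 1.52, Cx3cr1 at 1.36 and the scavenger receptor Ackr3 at 0.636 (0.466 to 0.849). Cxcr3, the receptor of Cxcl9 and Cxcl10, had 4 UMIs in 4 member spots and 74 UMIs in the remaining spots, 2.45 against 1.92 CPM, so no difference was detectable at this depth. The list of inflammatory cytokines and NF-kB targets had 6 of 11 measured genes at least 2-fold higher and a median of 1.12. Il1b stood at 2.44 (2.05 to 2.89), the interleukin 1 receptor antagonist Il1rn at 3.30 and the lectin receptor Clec4e at 4.10. Tnf had 28 UMIs in 20 member spots, 17.2 against 3.60 CPM, and lay under the minimum. Nos2, the inducible nitric oxide synthase, had 5 UMIs, and Ptgs2 stood at 15.3 against 17.9 CPM.

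General macrophage genes stood higher by less. Of 17 measured, 6 were at least 2-fold higher, with a median log2 ratio of 0.97. Fcgr1, the high-affinity Fc receptor, stood at 231 against 51.4 CPM, a ratio of 4.49 (4.01 to 5.01), and Cybb, the NADPH oxidase subunit, at 3.94. Lysozyme, Lyz2, stood at 1.67 and the complement gene C1qa at 1.49. Among 96 member spots and 1348 remaining spots of like macrophage share, a setting added once values were known, the macrophage median was 0.45, and the type I, gamma and monocyte lists stood at 1.78, 1.79 and 0.99.

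Of 15 genes of lipid-associated and foreign-body macrophages, 5 were at least 2-fold higher, with a median of 0.72. Spp1, which encodes osteopontin, stood at 17645 against 8111 CPM, a ratio of 2.18, Mmp12, the macrophage elastase, at 2.41, and the lysosomal glycoprotein Gpnmb at 1.90. The lipid carrier Apoe stood at 1.03. The alternative macrophage state list had no gene past 2-fold among 4 measured. Arg1, arginase 1, stood at 0.819 and the mannose receptor Mrc1 at 1.60, and the median of 0.30 was -0.05 in spots of like macrophage share, so no direction is given for it.

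Osteoclast genes, described because of the known role of Tmem178, lay close to the remaining spots. None of 9 measured genes of the osteoclast and fusion list was 2-fold higher or lower, and the median of 0.22 (-0.10 to 0.53) was -0.03 in spots of like macrophage share. The gene of tartrate-resistant acid phosphatase, Acp5, stood at 705 against 898 CPM, a ratio of 0.785 (0.739 to 0.832), and cathepsin K, Ctsk, at 0.870. A single member spot held 21.0% of the Acp5 UMIs of the member spots, and the median member spot stood at 294 CPM. For Ctsk the spot with the most UMIs held 12.8%. Tnfrsf11a, the receptor RANK, stood at 1.89, Atp6v0d2, a proton pump subunit, at 1.47 and Nfatc1, the master factor of osteoclast formation, at 1.17. Of the 11 measured genes of RANK and calcium signalling, Irf8 alone, at 2.33, passed 2-fold.

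Markers of other cells and tissues were as follows. Of the 17 genes of T and NK cells 2 reached the minimum, Gzma, a granzyme of cytotoxic cells, at 33.7 against 3.34 CPM from 55 UMIs in 29 spots, and the interleukin 7 receptor Il7r at a ratio of 2.5. The NK granule gene Nkg7 had 40 UMIs in 30 spots, 24.5 against 3.37 CPM, and Gzmb 38 UMIs, 23.3 against 2.98 CPM. Cd3e had 11 UMIs in 10 spots. Other T cell genes of the list, under the minimum too, were uneven. Cd4 at 1.03 (0.37 to 2.30), Trac at 1.53 (0.96 to 2.34) and Cd3d at 1.71 (0.67 to 3.65) had intervals that held 1. The intervals of Cd3g, at 2.37, Trbc1, at 3.52, Trbc2, at 2.32, and Cd8a, at 6.22 from 5 UMIs, lay above 1. The genes under the minimum, Nkg7, Gzmb and Cd3e among them, were chosen after their values were seen.

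Of neutrophil genes, S100a8 and S100a9 stood at 0.867 and 1.09 and Csf3r at 2.5, and the sign of that list's median differed under 3 alternatives. The plasmacytoid dendritic cell list stood at -1.89 over 4 measured genes, and between -2.50 and -0.24 under its 17 alternatives. The erythroid list stood at -2.04 over 4 measured genes. The fibroblast list stood at -0.37, the endothelial list at -0.33, and the pericyte list at -0.43. The osteoblast list stood at -0.79, but at 0.17 in spots of like macrophage share, and the bone sialoprotein gene Ibsp had a ratio of 0.491. As a summed share the osteoblast list went the other way, with 1.80% of UMIs in member spots and 0.877% in remaining spots. Spp1 alone stood at 17645 and 8111 CPM, so most of that share was Spp1. By that share 102 member spots lay above the median of the remaining spots, which says little of the scarcer osteoblast genes. Because the median changed sign in spots of like macrophage share, no direction is given for this list. Cell division genes stood at 0.22 with none of 11 past 2-fold. Of immediate early and stress genes, Atf3 stood at 3.16 and Dusp1 at 2.22, with a median of 0.51 over 9 genes.

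The genes that stood lowest were muscle genes and Ccl21a, a chemokine of lymphatic vessels. Ccl21a had 2 UMIs in member spots and stood at 1.23 against 52.4 CPM, and it has near copies in the genome. The other 11 genes of the lowest 12 were muscle genes, among them myoglobin, Mb, at 36.8 against 730 CPM. The median log2 ratio of the skeletal muscle list was -3.83. Spots with over 2% of their UMIs in the muscle list made up 1 of 120 member spots and 276 (11.7%) of the remaining spots. Without the spots rich in muscle, skin, fat or nerve genes, 2 member spots and 345 remaining spots, the muscle list stood at 0.62, in the opposite direction, while the type I, gamma and monocyte lists stood at 1.97, 1.92 and 1.16.

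After every spot was thinned to 2000 UMIs, Rsad2 was found in 20.8% (14 to 29.2, Clopper-Pearson) of member spots and 3.83% of remaining spots. That interval takes each spot as an independent draw, and spots of 1 section are not replicates. The muscle-rich remaining spots held Rsad2 in 1.45%, with a median of 13521 UMIs before thinning against 10764 in member spots. Barcodes under the UMI minimum that had at least 2000 UMIs held it in 7.24%, above the remaining spots. The muscle-rich spots are no negative control, since the macrophage gene Lyz2 was found in 62.7% of them after the same thinning. Ms4a4c was found in 36 of the 120 member spots, 4.89% of remaining spots, 0.362% of muscle-rich spots and 8.0% of the barcodes under the minimum. Without thinning, Rsad2 was found in 57.5% of member spots and 21.7% of remaining spots. Member spots stood above both of these other sets of barcodes for both genes. Both genes were picked for their high ratios in the same member spots, so this describes them and is no test.

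The member spots differed among themselves by rank. Against spots ranked beyond 240, where 9.22%, 7.54%, 4.67% and 1.46% of genes were at least 2-fold higher for ranks 1 to 30, 31 to 60, 61 to 120 and the next 120, the type I list stood at 2.77, 1.99, 1.47 and 1.02. The gamma list stood at 2.55, 2.26, 1.71 and 1.17 in the same order. The monocyte list stood at 1.41, 1.5, 0.83 and 0.49, and the general macrophage list at 1.0, 0.91, 0.91 and 0.50. The interferon lists went down with rank across and beyond the limit of 120, whereas the macrophage list was level within it. Cxcl10, itself an interferon target, sets the rank in part, so this fall describes the ranking and is no test.

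**Figure D4:**
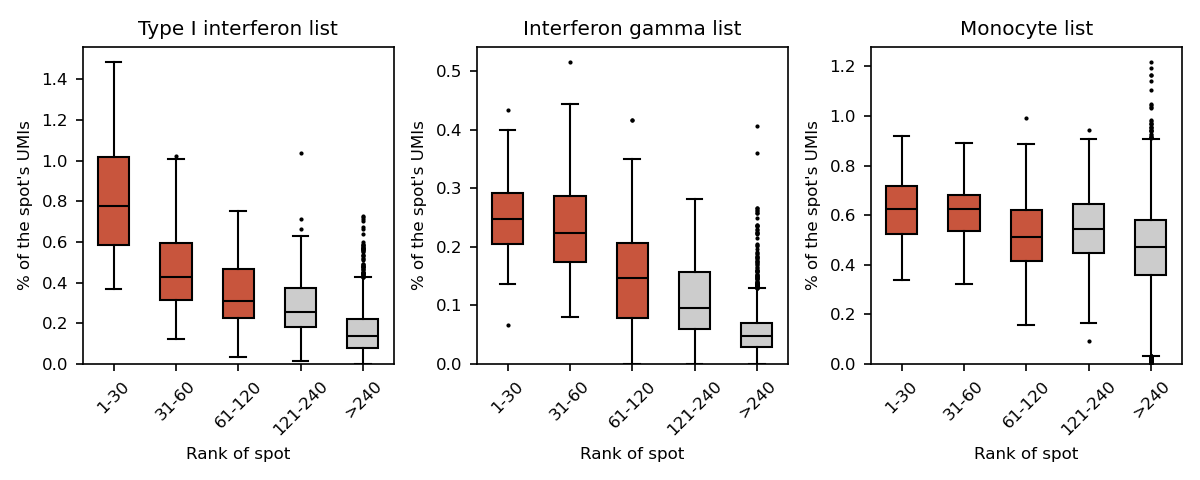
Share of a spot's UMIs (%) taken by the type I interferon, interferon gamma and monocyte lists, by rank of the kept Col_nHA spots; boxes show the quartiles and median, whiskers reach 1.5 times the interquartile range, points are spots beyond them, and member ranks are red. The type I list has its highest values in ranks 1 to 30, up to 1.48%. The monocyte list, most of whose UMIs are Fn1, overlaps widely between ranks.

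In 58 member spots Ly6c2 had the most UMIs of the 3 genes, in 43 Cxcl10, in 3 Tmem178, and 16 were tied. Some interferon-response genes stood higher in member spots led by Cxcl10, itself an interferon target, than in those led by Ly6c2. Of 6455 genes measured, 230 (3.56%) were at least 2-fold higher in the Cxcl10-led spots and 143 (2.22%) at least 2-fold lower. Rsad2 stood at 409 CPM in Cxcl10-led spots and 115 CPM in Ly6c2-led spots, a ratio of 3.55 (2.76 to 4.59). Ifit3 had a ratio of 2.77 (2.19 to 3.52), Cxcl9 one of 2.83 (2.0 to 4.04) and Mx1 one of 2.15 (1.49 to 3.13), while the interval of Cd274, at 1.15 (0.732 to 1.78), held 1. The median log2 difference between these sets of spots was 0.60 (-0.01 to 1.04) for the type I list and 0.51 (0.08 to 0.88) for the gamma list. These bounds are the medians of the single genes' bounds and are no interval for the list.

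Some genes of monocytes and of inflammatory chemokines went the other way. Whether their lists shifted was not tested, and the list bounds are again medians of the single genes' bounds. The median log2 difference was -0.06 (-0.58 to 0.37) for the monocyte list and -0.33 (-0.71 to 0.08) for the chemokine list. It was -0.28 (-0.54 to -0.02) for the general macrophage list and -0.53 (-0.60 to -0.28) for the lipid-associated list. Ms4a4c stood at 169 CPM in Cxcl10-led and 308 CPM in Ly6c2-led spots, a ratio of 0.550 (0.429 to 0.700), and Chil3 at 129 and 209 CPM, a ratio of 0.614 (0.459 to 0.815). Acod1 and Ccl2 had ratios of 0.449 (0.248 to 0.777) and 0.645. Ccl4 had a ratio of 0.481, but without the Ly6c2-led spot that held 56 of its UMIs the ratio was 0.732 (0.516 to 1.03). Intervals for Ccr2, at 0.901 (0.683 to 1.18), and Plac8, at 0.843, held 1, and without the Cxcl10-led spot with the most Plac8 UMIs that gene stood at 0.624 (0.477 to 0.810). Acp5 stood at 1051 CPM in Cxcl10-led and 506 CPM in Ly6c2-led spots, a ratio of 2.08 (1.82 to 2.37), but 241 of its UMIs lay in 1 Cxcl10-led spot, without which the ratio was 1.32 (1.14 to 1.52). Leaving out the top spot of each gene, a setting added once values were known, left Rsad2 at 3.29, Ifit3 at 2.498, Cxcl9 at 2.41 and Mx1 at 1.95. Mmp9, at 1.36, stood at 0.880 without its top spot, and Cd274 at 0.904. The endothelial list was higher in Cxcl10-led spots by a median log2 of 1.07 (0.40 to 1.66). The spots were sorted by rule genes, so Ly6c2 and Cxcl10 are not compared between them. Spot-to-spot spread is not in these intervals.

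**Figure D5:**
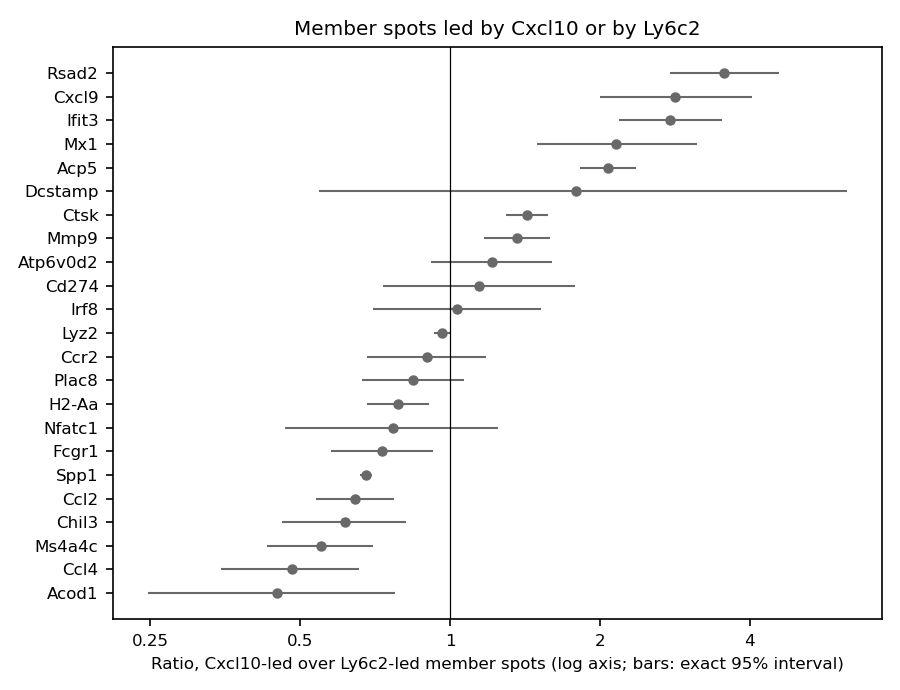
Ratio of CPM in the 43 member spots led by Cxcl10 over CPM in the 58 led by Ly6c2 (log axis) with exact 95% intervals of counts, for 23 genes outside the rule; the line marks 1. Rsad2, Cxcl9, Ifit3, Mx1 and Acp5 stand above 2, and Acod1 and Ccl4 stand below 0.5; Acp5 and Ccl4 stand at 1.32 and 0.732 without the spot with the most UMIs of that gene.

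Tmem178 was also high in another kind of spot. In the 120 kept spots with the largest share of Gpnmb and Mmp12, of which 11 (9.17%) were member spots, Tmem178 had 139 UMIs, 46.7 CPM against 5.08 CPM in the rest. The type I, gamma and monocyte lists stood there at 0.47, 0.20 and 0.05, and the lipid-associated list at 2.06. The 1 measured gene of the T and NK cell list stood there at a log2 ratio of 2.47, so a high value for a single gene of this list is not particular to member spots. The other genes of the list did not reach the minimum there, so the list as a whole is not compared. In those spots 6.1% of measured genes were at least 2-fold higher. In the 120 spots with the largest share of Saa3 and Cxcl5, of which 10 (8.33%) were member spots, the type I list stood at 0.93, the gamma list at 0.43 and the monocyte list at 0.28, with 3.01% of genes at least 2-fold higher. In the 120 spots richest in Hmox1, 2 of them member spots, these lists stood at -0.18, -0.12 and 0.09, with 0.322% of genes at least 2-fold higher. Member spots made up 4.86% of all kept spots, so the first pair of sets held more member spots than that share and the Hmox1 set fewer. The type I and gamma medians of the member spots were larger than those of the 3 sets.

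Member spots resembled each other in genes outside the rule. Each kept spot was given its 15 nearest neighbours by expression without the 3 rule genes, and on average 40.4% of the neighbours of a member spot were member spots, against 1.89% for a remaining spot and 4.86% of all kept spots. Of the member spots, 22 had no member among their neighbours and 45 had at least 50% members. When 129 genes of 7 immune lists were left out too, the averages were 33.3% and 2.65%. Clustering without the rule genes gave 13 regions, and 1 region of 133 spots, led by Cxcl9, Ms4a4c, AW112010, Ccl5 and Rsad2, held 70 (58.3%) of the member spots. Nearness here is in expression, and where a spot lay in the section is not analysed here.

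The same rule applied to the Blank section gave 120 of 1937 kept spots, with a median of 11249 UMIs. The rank 120 spot there had a share of 210.2 CPM, lower than in Col_nHA. Ly6c2 stood at 244 CPM in those spots and Cxcl10 at 265 CPM, while Tmem178 had 9 UMIs, 5.68 CPM, so the Blank set rests on the other genes of the rule. Of 6552 genes measured, 325 (4.96%) were at least 2-fold higher than in the remaining Blank spots and 80 (1.22%) at least 2-fold lower. The type I list stood at 1.76 and the gamma list at 2.01, with 26 of 27 and 17 of 17 genes at least 2-fold higher.

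Side by side, the monocyte list stood at 1.28 in Col_nHA and 0.82 in Blank, and the class II list at 1.61 and 2.12. H2-Aa reached 638 CPM in the Col_nHA member spots and 1712 CPM in the Blank ones. Rsad2 stood at 232 and 135 CPM, and Ms4a4c at 237 and 91.6 CPM. Acod1 stood at 59.5 and 14.5 CPM, with a ratio of 1.76 within Blank, and Ccl4 at 137 and 29.7 CPM. Cxcl9 stood at 115 and 231 CPM and Ccl8 at 326 and 1421 CPM. Spp1 stood at 17645 CPM in the Col_nHA spots and 1630 CPM in the Blank ones. With 1 section a group, these differences compare the sections and not the treatments, and they were not tested.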

How the data were processed

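The authors deposited raw UMI counts for every barcode of the array, by gene, with no filter for tissue. Counts were made with Space Ranger on mm10, per the submitters' processing notes; the Space Ranger version was not given in the sources used here. Per the file headers, the matrix software was Cell Ranger 4. The labels describe frozen spatial sections, but their extraction text describes droplet single cells.

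The member spots and 32 gene lists were chosen with earlier results of these data known. Counts were summed over spots and scaled to CPM. Ratios have conditional binomial intervals and CPM have Poisson intervals, at 95% and for counting error only. Shares of spots have 95% Clopper-Pearson intervals, which take each spot as an independent draw, though spots of 1 section are not replicates. Genes needed 25 CPM in either set of spots, and a call needed 2-fold. A list has the median of its measured genes, and 412 of 414 listed symbols were found. Named genes were the 12 highest and 12 lowest ratios from 50 CPM, among genes other than mitochondrial, ribosomal, haemoglobin and unnamed ones. Members of the 13 main lists and the leading members of the other lists were named as well. Of 31053 gene IDs, 30934 matched the name table, and 1 listed symbol had 2 IDs, of which the first was used.

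Thinning went to 2000 UMIs per spot. Neighbours and regions used 2000 variable genes, 30 components, 15 neighbours and Leiden clustering at resolution 0.6. Depth was 45137685 UMIs in Col_nHA and 34868368 in Blank, with no doublet call, since spots hold several cells. Promoters are those of RefSeq. The calculations were tested on simulated data. Software was Python 3.11.15, scanpy 1.11.5, scipy 1.17.1, and edgeR 4.0.16 in R 4.3.3 for TMM factors alone. Alternatives were other numbers of spots, UMI and CPM minimums, rankings, scalings and sets of spots.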

Additional observations from a re-analysis of the deposited data

Results flagged for a closer look

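The erythroid list pointed opposite ways in the sections, with a median log2 ratio of -2.04 in the Col_nHA member spots and 0.997 in the Blank spots chosen by the same rule, each against its own remaining spots. The skeletal muscle list did so too, at -3.83 in Col_nHA and 0.73 in Blank, and in Col_nHA it stood at 0.62 without spots rich in other tissues. Neither difference was tested, since each group held 1 section. In the Col_nHA barcodes under the UMI minimum, which enter no comparison of member spots, Ly6c2 stood at 49.8 CPM and Cxcl10 at 35.7 CPM, above the 26.8 and 15 CPM of the remaining spots.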

How the results depend on the processing

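No paired analysis was possible because each group held 1 section. For the same reason no section could be left out. The monocyte, type I interferon and interferon gamma medians stayed above 0 under all 19 alternatives, with ranges of 0.72 to 1.36, 1.69 to 2.30 and 1.68 to 2.23. With the top 240 spots they stood at 0.72, 1.76 and 1.68, and 217 genes were at least 2-fold higher. With the top 60 spots the type I median was 2.30. Ranking by summed UMIs put the type I median at 1.79, and ranking without Cxcl10 put the type I and gamma medians at 1.69 and 1.68. A minimum of 9000 UMIs put the gamma median at 1.79. A minimum of 50 CPM put the monocyte median at 0.75 and left 108 genes at least 2-fold lower. With 10 CPM 416 genes were lower, and with no CPM minimum 1527 were higher and 1152 lower. Without spots rich in other tissues 87 genes were at least 2-fold lower.

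In spots of like macrophage share, added after the data were seen, 221 genes were higher and 105 lower, and the type I and gamma medians were 1.78 and 1.79. For the genes left out of the rule in turn, the ratio with the top 60 spots was 11.4 for Ly6c2, 17.9 for Cxcl10 and 4.41 for Tmem178, and with the top 240 spots 6.20 for Ly6c2 and 7.72 for Cxcl10. Log2 ratios turned positive without spots rich in other tissues for the muscle list, at 0.62, Mb at 0.20, Ckmt2 at 0.49, Mybpc2 at 0.41, Tnnc2 at 0.64 and Myl1 at 0.31. In spots of like macrophage share the muscle list stood at 0.20, the osteoblast list at 0.17, Ckmt2 at 0.030, Mybpc2 at 0.15, Actc1 at 0.032 and Tnnc2 at 0.029, and the alternative macrophage list turned negative, at -0.050. The cause of these changes was not tested. Of the 12 genes named as highest, all 228 alternative values lay above 0, which is no test, since they were picked for high ratios in the same data. The scalings moved the median of all genes by -0.016, -0.006 and -0.040 on the log2 scale. Depth limits the scarce genes, such as Tmem178 with 86 UMIs and Cxcr3 with 4 in member spots.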
